A study of Rattus norvegicus with 12 samples.

Results

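The Polo-like kinases Plk1, Plk2, Plk3 and Plk4 were followed across rat cardiac progenitor cells that were either in suspension or placed on 1 of 3 surfaces. They are the 4 genes, of 16924 in the count files, whose Entrez identifiers (25515, 83722, 58936 and 310344) match these rat symbols. All 4 passed the filter on low counts and were among the 10020 genes tested. The row of Plk5, the fifth gene of the family, held 7 counts over all 12 libraries and at most 2 in any of them, and was not tested.

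Polo-like kinases are serine/threonine kinases with an N-terminal kinase domain and C-terminal polo boxes, which bind partner proteins and place the kinase at centrosomes, kinetochores and the midbody. Plk1 acts in mitotic entry, spindle assembly and cytokinesis, and Plk4 starts the duplication of centrioles. Plk2 and Plk3 were first described as genes induced by serum and growth factors, and are known from stress responses and cell cycle checkpoints as well.

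There were 3 libraries in each of 4 groups: cells on fibronectin, cells on laminin, cells on dishes with no coating, and cells in suspension. Fibronectin and laminin are matrix proteins to which cells attach through integrins. The labels describe the cells as a line derived from 1 clone of rat cardiac progenitors, and give no genetic change or drug. Per the labels' protocols, cells were grown with fetal bovine serum, leukemia inhibitory factor, basic fibroblast growth factor and erythropoietin, then kept at low density for 2 h in medium with 0.1% serum. The labels attach the same protocol to the suspension libraries and do not say how those cells were handled. Each library carries a batch label equal to its replicate number, so every batch holds 1 library of each group, and p-values of comparisons between groups measure the spread between batches of 1 line.

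Library totals lay between 15875160 and 20852160 counts. The mesenchymal genes Vim and Col1a1 averaged 5125 and 1165 CPM (counts per 1000000 counts of the library total). Of other mesenchymal genes, Col3a1, Pdgfra and Ddr2 averaged 350, 330 and 114 CPM, but Thy1 had 18 counts in all (mean 0.0842 CPM). The cardiac factor Gata4 averaged 88.4 CPM. The receptor gene Kit averaged 3.09 CPM. Nkx2-5 and Isl1, factors of embryonic heart progenitors, had 0 counts in every library, which allows up to 3 counts in each, and of the cardiomyocyte genes Myh6 had 1 count, Tnni3 95 counts in all (mean 0.445 CPM) and Tnnt2 930 (mean 4.32 CPM; 5.15 CPM in the attached groups and 1.82 CPM in suspension). The part of such cells in the results was not tested. Markers of other cells were uneven: Flt1 averaged 135 CPM and Cd14 49.2 CPM, while Pecam1 averaged 0.274 CPM and Ptprc had 3 counts in all. Among smooth muscle genes, Tagln averaged 196 CPM, Myh11 8.17 CPM, Des 4.62 CPM and Cnn1 0.140 CPM. On the first principal component, which held 56.0% of the variance, the batch 3 libraries of the 3 attached groups stood apart at 20.8 on fibronectin, 34.1 on laminin and 40.9 without coating, against -6.68 to 2.00 for the other attached libraries and -30.8 to -28.7 for suspension. In bulk RNA, fewer cells of a kind and less RNA per cell cannot be told apart.

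The promoters of Plk2, Plk4 and Plk1 are printed because these 3 genes had the separate patterns that the results turn on. Each stretch holds 250 bases before and 50 after the annotated start, 300 in all, 5′ to 3′ on the gene's strand, from RefSeq on GRCr8, with motif matches in capitals. All 4 members matched an entry.
Plk2, chr2:43702286-43702585, + strand: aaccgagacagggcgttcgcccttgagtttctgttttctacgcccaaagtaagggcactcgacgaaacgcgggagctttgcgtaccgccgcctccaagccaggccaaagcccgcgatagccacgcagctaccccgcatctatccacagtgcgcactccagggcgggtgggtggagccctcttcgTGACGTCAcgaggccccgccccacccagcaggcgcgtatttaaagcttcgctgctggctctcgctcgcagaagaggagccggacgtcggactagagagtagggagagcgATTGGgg
Plk4, chr2:125730230-125730529, + strand: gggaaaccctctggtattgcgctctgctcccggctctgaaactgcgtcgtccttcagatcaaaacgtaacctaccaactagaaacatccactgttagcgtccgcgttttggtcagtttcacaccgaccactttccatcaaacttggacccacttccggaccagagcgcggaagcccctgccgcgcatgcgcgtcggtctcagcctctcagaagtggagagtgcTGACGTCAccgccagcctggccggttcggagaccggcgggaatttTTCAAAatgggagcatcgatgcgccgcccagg
Plk1, chr1:186147408-186147707, + strand: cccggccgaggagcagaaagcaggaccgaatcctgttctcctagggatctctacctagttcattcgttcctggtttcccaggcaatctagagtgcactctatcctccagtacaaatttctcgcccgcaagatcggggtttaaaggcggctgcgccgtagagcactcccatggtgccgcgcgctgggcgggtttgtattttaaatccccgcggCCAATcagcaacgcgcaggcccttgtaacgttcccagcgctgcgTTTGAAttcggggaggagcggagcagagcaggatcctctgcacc
Both strands were searched for the cyclic AMP response element TGACGTCA, for the CCAAT box, and for TTTGAA, the cell cycle homology region found in promoters of mitotic genes. The search also covered GGAATG, which TEAD factors bind, the AP-1 letters TGANTCA, the SRF CArG box and the p53 binding motif. No 2 of the marked matches overlap. Plk2 held TGACGTCA beginning 66 bases before the start. It also held CCAAT on the other strand, printed as ATTGG, after the start at bases 294 to 298 of the window. Plk4 held TGACGTCA 27 bases before the start. Its TTTGAA, on the other strand and printed as TTCAAA, lay after the start at bases 269 to 274. Plk1 held CCAAT 38 bases before the start and TTTGAA just after it. Among 33469 rat promoters of this length, TGACGTCA was in 1.83%, CCAAT in 37.5% and TTTGAA in 18%. The Plk3 window held none of the 7 motifs, and none of the 4 windows held a match to the TEAD, AP-1, CArG or p53 letters, which were in 14.2%, 7.33%, 1.64% and 7.98% of promoters.

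Plk2 was the member that passed the test between surfaces. It was higher on fibronectin than on either other surface, and fell on laminin and without coating to 0.324 and 0.300 of the suspension level in the fit. Plk2 had 51.6, 56.7 and 48.9 CPM on fibronectin in batches 1, 2 and 3. On laminin it had 17.8, 15.5 and 15.1 CPM, and without coating 15.3, 14.9 and 14.01 CPM. In suspension it had 39.4, 61.3 and 48.4 CPM. The libraries from laminin and from uncoated dishes lay below all suspension libraries, as held for 23.0% and 23.5% of tested genes. They also lay below all fibronectin libraries, as held for 2.66% and 2.62%. The fibronectin values fell inside the range of suspension.

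The means were 52.4 ± 3.95 CPM on fibronectin, 16.1 ± 1.42 on laminin, 14.8 ± 0.674 without coating and 49.7 ± 11.0 in suspension (SD, n = 3 each). In edgeR's quasi-likelihood test with Benjamini-Hochberg adjustment, the log2 fold change against suspension was -1.63 ± 0.16 on laminin (SE, adjusted p = 9.02e-05) and -1.74 ± 0.16 without coating (adjusted p = 6.41e-05). Of all tested genes, 6.96% and 4.10% were called lower in these comparisons. On fibronectin it was 0.11 ± 0.15 (adjusted p = 0.675), with a 95% interval of -0.23 to 0.44. That value turned to -0.045 without suspension replicate 1, the lowest of the suspension libraries.

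Between surfaces, Plk2 was 3.32-fold higher on fibronectin than on laminin (log2 fold change 1.73 ± 0.16, adjusted p = 0.000848) and 3.59-fold higher on fibronectin than without coating (1.84 ± 0.16, adjusted p = 0.000488, edgeR). It was higher on fibronectin in 3 of 3 batches in both comparisons. Few genes separated the surfaces: 0.140% of the tested genes were called higher on fibronectin than on laminin and 0.170% higher than without coating. Plk2 was the only member among them, and ranked 4 of 10020 by p in each. Its groups did not overlap in either comparison, as held in this direction for 2.66% of genes against laminin and 2.62% against no coating. For laminin against no coating the Plk2 log2 fold change was 0.11 ± 0.16, with a 95% interval of -0.24 to 0.46. In that comparison edgeR called 0 of 10020 genes, or 0%, at an adjusted p under 0.05 and found 156 at an unadjusted p under 0.05, while DESeq2 called 0 and found 105.

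**Figure D1:**
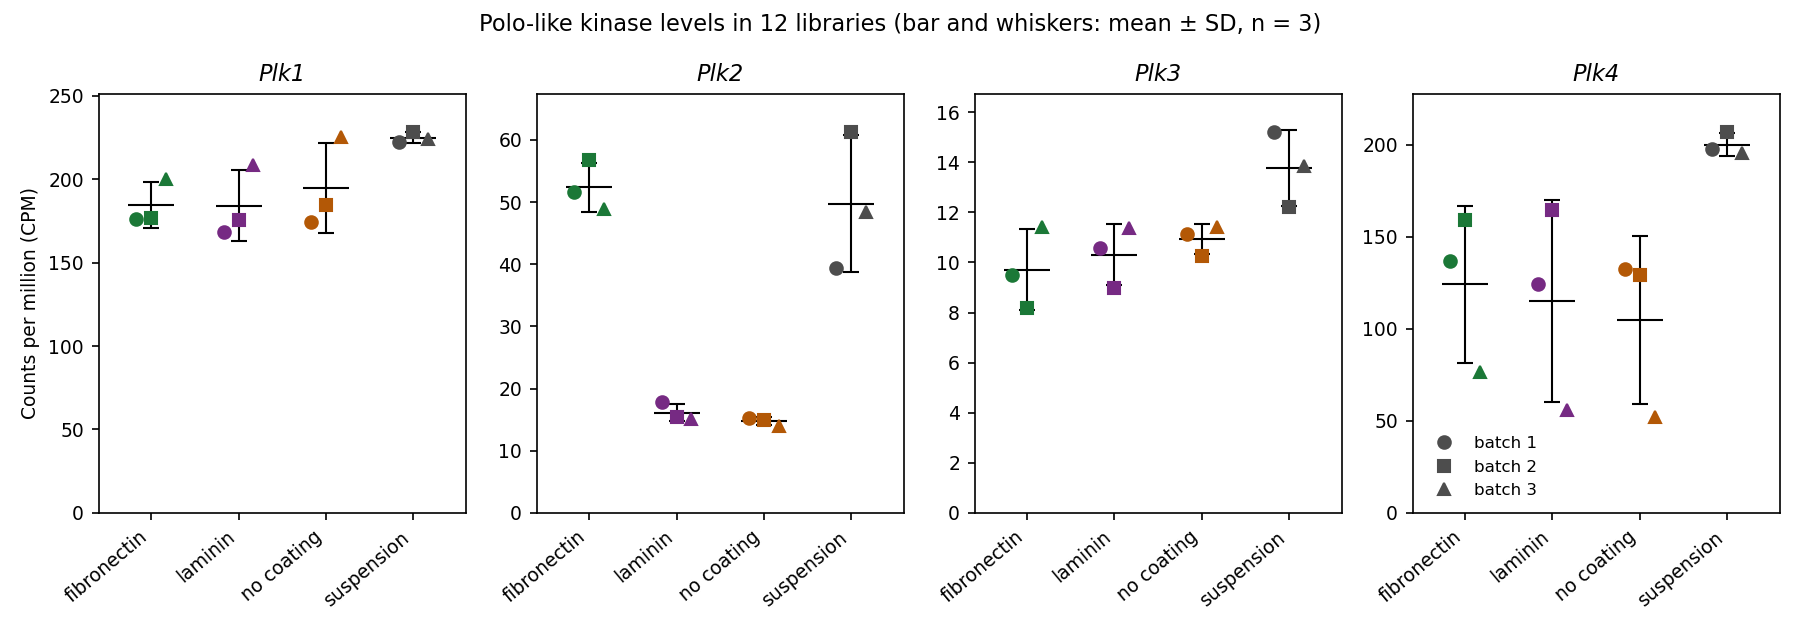
Level of each Polo-like kinase in every library, in CPM on axes that start at 0, by group; symbols mark batches 1 to 3 and bars give mean ± SD (n = 3). Plk2 lies at 14.01 to 17.8 CPM on laminin and without coating, against 39.4 to 61.3 CPM in suspension, and Plk4 is lowest in the batch 3 library of each attached group.

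Within batches, the Plk2 log2 difference from suspension was -1.15, -1.99 and -1.68 on laminin and -1.36, -2.04 and -1.79 without coating, in batches 1, 2 and 3. It was 0.39, -0.11 and 0.02 on fibronectin, so its sign differed between batches there. Fibronectin exceeded laminin by 1.54, 1.87 and 1.69, and no coating by 1.75, 1.93 and 1.80, on the same scale. Batch 3 lay between the other batches in all 5 of these series, which share libraries. In CPM, the batch 3 library was the lowest on each surface, at 48.9 on fibronectin, 15.1 on laminin and 14.01 without coating. The next lowest were 51.6, 15.5 and 14.9 CPM. With the batch number as a block the fibronectin and laminin difference was 1.73 (adjusted p = 0.000872, edgeR), and adjusted p lay between 3.47e-19 and 0.0208 over the 21 alternatives of that comparison.

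Plk3, a kinase of stress and checkpoint responses, was lower in every attached library than in every suspension library, by a small amount, and 16.7% of all tested genes were lower in this way. It had 9.51, 8.20 and 11.4 CPM on fibronectin in batches 1, 2 and 3, 10.6, 8.97 and 11.4 CPM on laminin, and 11.1, 10.3 and 11.4 CPM without coating, against 15.2, 12.2 and 13.8 CPM in suspension. The highest attached libraries, those of batch 3, came close to the lowest suspension library, and the 3 surfaces overlapped. In 2034 of the 10020 tested genes the batch 3 attached libraries likewise lay above all other attached libraries. Counts were low: the fibronectin library of batch 2 had 157, which gives an exact 95% Poisson interval of 6.96 to 9.58 CPM that covers counting error only. For the fibronectin library of batch 3 this interval was 9.95 to 13.0 CPM. It overlapped that of the lowest suspension library, 10.6 to 13.9 CPM in batch 2.

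Plk3 averaged 9.71 ± 1.62 CPM on fibronectin, 10.3 ± 1.23 on laminin and 10.9 ± 0.600 without coating, against 13.8 ± 1.51 CPM in suspension (SD, n = 3 each). It fell on fibronectin (log2 fold change -0.47 ± 0.13, adjusted p = 0.0485, edgeR) and on laminin (-0.41 ± 0.13, adjusted p = 0.0484). Both calls sat just inside the threshold and each was lost in 9 of 12 fits that left out 1 library, with values between -0.59 and -0.35 on fibronectin and between -0.48 and -0.33 on laminin. Without coating the value was -0.31 ± 0.13 (adjusted p = 0.136), and -0.31 (adjusted p = 0.0231) with the batch number as a block; over the 21 alternatives adjusted p ran from 0.0231 to 0.293. The mean of the 3 attached groups was lower by edgeR as well (-0.40 ± 0.10, adjusted p = 0.0198), a call that was lost without suspension replicate 1 (-0.33, adjusted p = 0.0884) or replicate 3 (-0.39, adjusted p = 0.0799). Within batches 1, 2 and 3 the log2 difference from suspension was -0.68, -0.57 and -0.28 on fibronectin, -0.53, -0.44 and -0.28 on laminin, and -0.45, -0.25 and -0.28 without coating, below 0 in all 9.

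Plk1, the mitotic kinase, had small differences between groups. It had 176, 177 and 200 CPM on fibronectin in batches 1, 2 and 3, 168, 176 and 209 CPM on laminin, and 175, 185 and 225 CPM without coating, against 222, 229 and 224 CPM in suspension. The fibronectin and laminin libraries lay below all suspension libraries, while the uncoated library of batch 3 lay among them. In every attached group batch 3 was the highest of the 3. The batch 3 attached libraries lay above all other attached libraries, as held for 2034 of the 10020 tested genes.

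Plk1 averaged 184 ± 13.9 CPM on fibronectin, 184 ± 21.4 on laminin and 195 ± 26.7 without coating, against 225 ± 3.22 CPM in suspension (SD, n = 3 each). No single surface passed the test in edgeR: the log2 fold change was -0.25 ± 0.09 on fibronectin (adjusted p = 0.118), -0.29 ± 0.09 on laminin (adjusted p = 0.0550) and -0.19 ± 0.09 without coating (adjusted p = 0.184). With the batch number as a block all 3 passed, at -0.26 (adjusted p = 0.0187), -0.29 (adjusted p = 0.00701) and -0.20 (adjusted p = 0.0363). Over the 21 alternatives of each, adjusted p ran from 0.00213 to 0.284, from 0.000384 to 0.153 and from 0.00278 to 0.359. The mean of the attached groups was lower by -0.24 ± 0.08 on the log2 scale (adjusted p = 0.0370, edgeR), and this call was lost in 8 of the 12 fits that left out 1 library, where values lay between -0.28 and -0.22. Within batches the difference from suspension was -0.34, -0.37 and -0.16 on fibronectin, -0.40, -0.38 and -0.10 on laminin, and -0.35, -0.31 and 0.01 without coating.

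Plk4, the kinase that starts centriole duplication, was lower in every attached library than in every suspension library, as held for 16.7% of all tested genes. Its level in the attached groups depended on the batch. It had 137, 159 and 76.5 CPM on fibronectin in batches 1, 2 and 3. On laminin it had 125, 165 and 56.2 CPM, and without coating 133, 129 and 52.1 CPM. In suspension it had 197, 207 and 196 CPM. Batch 3 was the lowest on each surface, and the suspension library of that batch was not low. The means were 124 ± 42.7 CPM on fibronectin, 115 ± 54.9 on laminin and 105 ± 45.5 without coating, against 200.1 ± 6.21 CPM in suspension (SD, n = 3 each).

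With this spread the differences in Plk4 did not pass in edgeR. The log2 fold change was -0.65 ± 0.43 on fibronectin (adjusted p = 0.354), -0.79 ± 0.43 on laminin (adjusted p = 0.210) and -0.91 ± 0.43 without coating (adjusted p = 0.174). With the batch number as a block they passed, at -0.78 (adjusted p = 0.0474), -0.96 (adjusted p = 0.0157) and -1.07 (adjusted p = 0.0124), although such a block takes the batch shift to be equal in all groups and the suspension libraries did not share it. Over the 21 alternatives of each, adjusted p ran from 0.00274 to 0.719, from 0.000690 to 0.494 and from 0.000209 to 0.424. The mean of the attached groups was at -0.78 ± 0.34 (adjusted p = 0.104) and, with the block, at -0.94 (adjusted p = 0.00477). Leaving batch 3 out of all groups gave -0.41 on fibronectin, which did not pass (adjusted p = 0.0722), -0.47 on laminin (adjusted p = 0.0307) and -0.60 without coating (adjusted p = 0.0186), and -0.49 for the attached mean (adjusted p = 0.00882).

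Within batches 1 and 2 the Plk4 log2 difference from suspension was -0.53 and -0.38 on fibronectin, -0.66 and -0.33 on laminin, and -0.58 and -0.68 without coating. In batch 3 it was -1.35, -1.80 and -1.91. A fit with a separate attachment effect for batch 3, chosen after the values had been seen, gave a difference in that effect of -1.20 ± 0.19 on the log2 scale for Plk4 (adjusted p = 0.00419, edgeR), and suspension alone differed by -0.05 ± 0.17 between batch 3 and the others. Batch 3 is a single batch, and the fit took its 3 attached libraries as separate. The SE and p here therefore measure the spread between libraries, not between batches. For suspension, batch 3 has 1 library. A lower attachment effect in batch 3 was called for 11.6% of the tested genes. For Plk1, Plk2 and Plk3 the same difference was 0.23 ± 0.10 (adjusted p = 0.192), -0.11 ± 0.24 (adjusted p = 0.819) and 0.17 ± 0.21 (adjusted p = 0.671).

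Set against the 6 attached libraries of batches 1 and 2, the 3 of batch 3 averaged 61.6 ± 13.1 CPM of Plk4, against 141 ± 16.6 CPM (SD). By this difference Plk4 ranked 154 of the 10020 tested genes, counted from the lowest. For Plk1 they averaged 211 ± 12.6 CPM, against 176 ± 5.18 CPM, and for Plk3 11.4 CPM, against 9.78 CPM. The ribosomal RNA share of the batch 3 attached libraries was 1.25% to 2.55%, inside the range of 0.448% to 4.24% over all libraries. The laminin and uncoated libraries of batch 3 had the fewest genes with a count of all libraries, 11412 and 11424. The next lowest, suspension of batch 2, had 11443, and the fibronectin library of batch 3 had 11539. What differed in batch 3 was not tested.

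**Figure D2:**
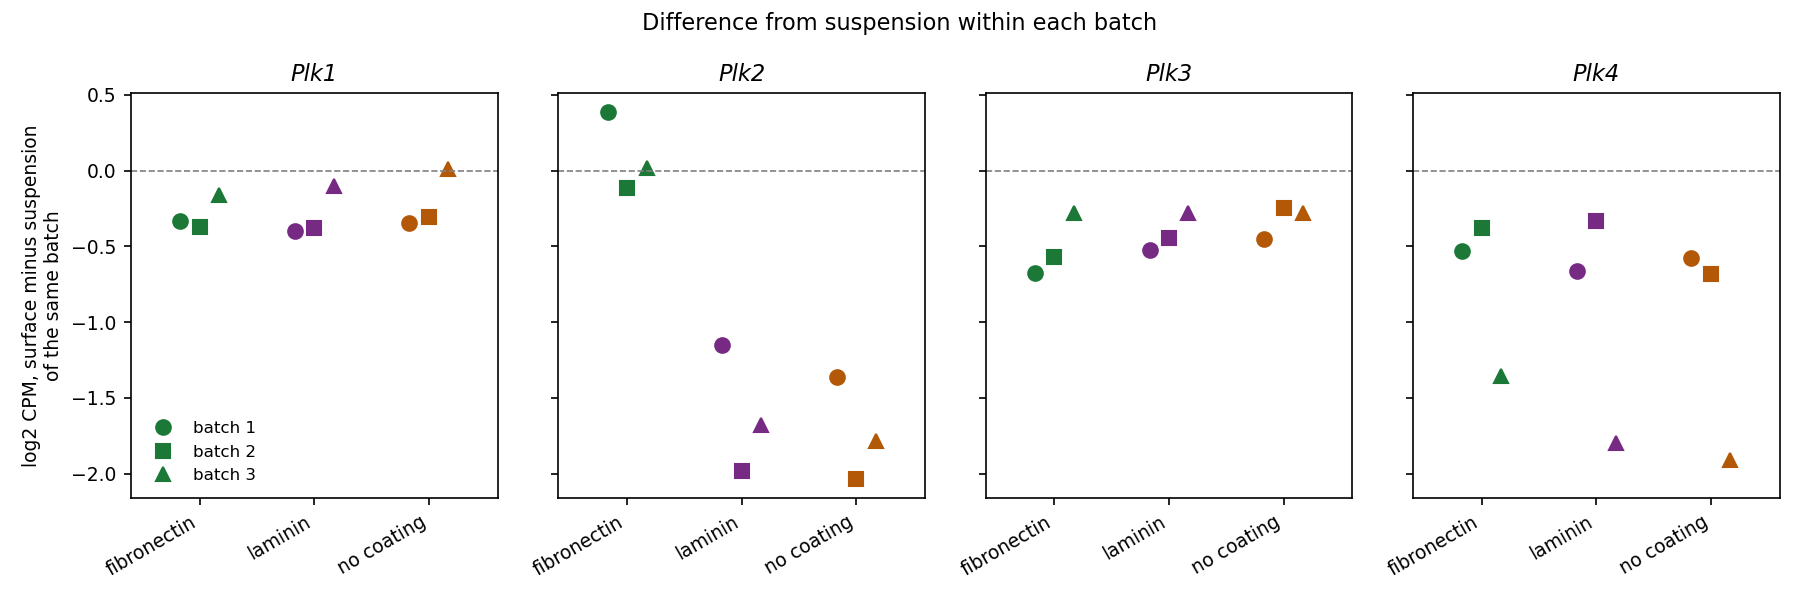
Log2 CPM of each Polo-like kinase on a surface minus suspension of the same batch; the dashed line marks no difference and symbols mark batches 1 to 3. Plk4 is at -1.35 to -1.91 in batch 3 and at -0.33 to -0.68 in batches 1 and 2, while Plk2 on fibronectin lies on both sides of 0.

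Counted together, 1 of 4 Polo-like kinases was called lower on fibronectin than in suspension (Plk3), 2 of 4 on laminin (Plk2 and Plk3) and 1 of 4 without coating (Plk2). The shares of all tested genes called lower were 3.06%, 6.96% and 4.10%. With the batch number as a block the members called lower numbered 3, 4 and 4, and 12.1%, 20.8% and 18.7% of all genes were called lower. No member was called higher against suspension on any surface. For the mean of the attached groups 3 of 4 were called lower (all but Plk4), against 10.4% of all genes, and 4 of 4 with the block, against 24.8%. Libraries did not overlap for Plk1, Plk3 and Plk4 on fibronectin, for all 4 on laminin and for Plk2, Plk3 and Plk4 without coating, each lower than suspension, and for 24.1%, 23.0% and 23.5% of all genes. Plk3 and Plk4 lay below suspension in all 9 attached libraries, as did 16.7% of all genes. The comparisons with suspension share its 3 libraries.

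**Figure D3:**
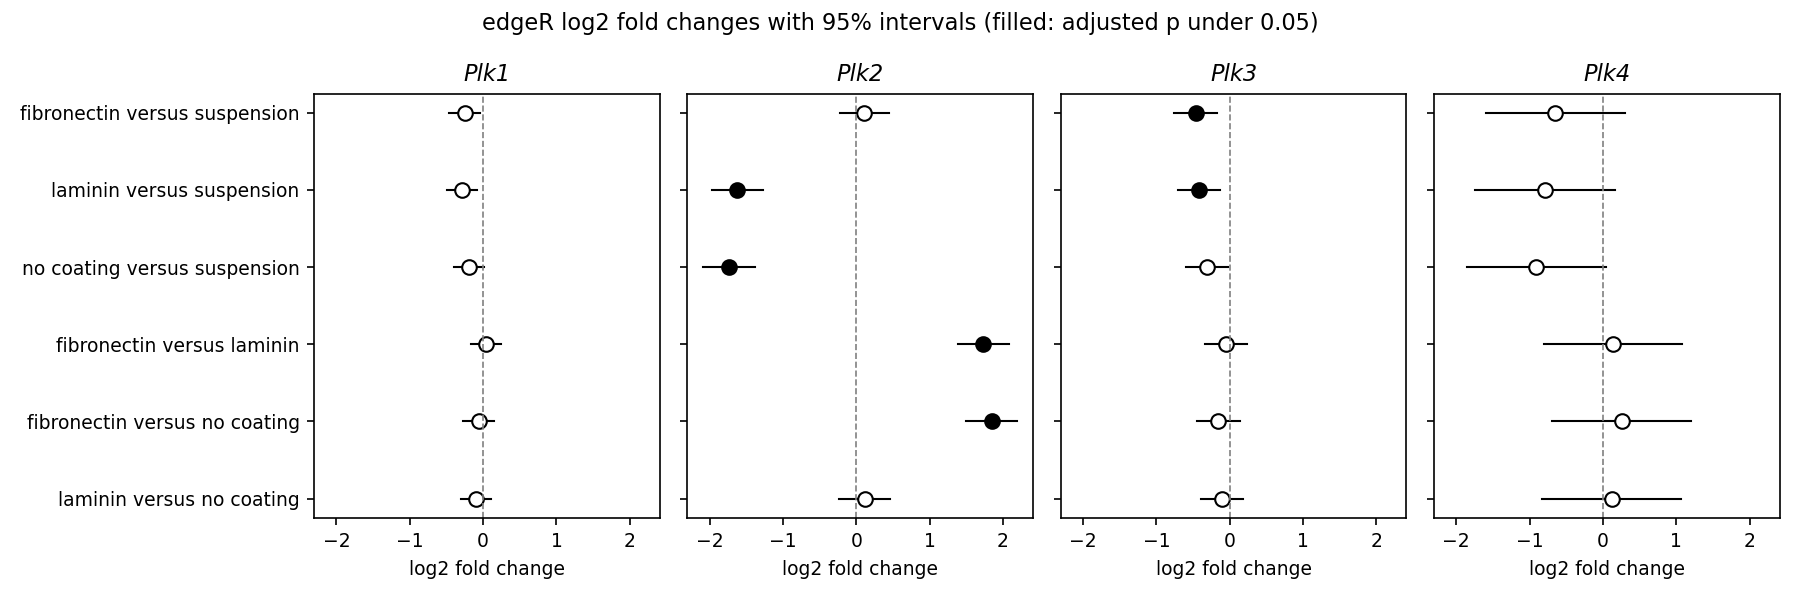
edgeR log2 fold change of each Polo-like kinase in the 6 comparisons between groups, with its 95% interval; filled points have an adjusted p under 0.05. Plk2 stands at -1.63 and -1.74 on laminin and without coating against suspension, and at 1.73 and 1.84 on fibronectin against those surfaces.

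By group mean, Plk2 was highest on fibronectin, then suspension, laminin and no coating. The neighbours fibronectin and suspension, and laminin and no coating, did not differ beyond their spread, and the step between suspension and laminin was the one that passed. Plk4 was ordered suspension, fibronectin, laminin, no coating, Plk3 suspension, no coating, laminin, fibronectin, and Plk1 suspension, no coating, with laminin and fibronectin level at 184 CPM. For these 3 genes neither the steps among surfaces nor the step between suspension and the next group passed in the edgeR fit without a block. With the batch number as a block the step from suspension passed for Plk1 and Plk3 (no coating, adjusted p = 0.0363 and 0.0231) and Plk4 (fibronectin, adjusted p = 0.0474). Of all tested genes, 18.7% and 12.1% were called lower in these blocked comparisons. Steps among surfaces did not pass with the block for these 3 genes. Their log2 differences for fibronectin against laminin were 0.04 (Plk1, 95% interval -0.17 to 0.25), -0.05 (Plk3, -0.34 to 0.24) and 0.14 (Plk4, -0.81 to 1.08), so the interval of Plk4 was wide.

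The genes whose centred log2 CPM over the 12 libraries came nearest to each member, by root mean square difference among 8676 genes compared, differed from member to member. Nearest to Plk2 were Nuak2 (0.24), Ajuba (0.25), Rnd1 (0.41), Pim3 (0.41) and Epha2 (0.45), where the median gene was at 0.89. Nuak2, a kinase of the AMPK-related family, averaged 12.3 CPM on fibronectin, 4.72 on laminin and 4.04 without coating, against 12.5 CPM in suspension. Ajuba, a LIM protein of cell junctions, averaged 108 CPM on fibronectin, 41.8 on laminin and 42.1 without coating, against 121 CPM in suspension. Epha2, an ephrin receptor, averaged 178 CPM on fibronectin, 90.1 on laminin and 108 without coating, against 323 CPM in suspension, and it fell on fibronectin against suspension (log2 fold change -0.82 ± 0.19, adjusted p = 0.0199, edgeR).

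Nearest to Plk4 were Cenpi (0.044), Alkbh8 (0.072), Htatsf1 (0.082), Ppil4 (0.083) and Brix1 (0.085), with the median gene at 0.69. Cenpi, which encodes a centromere protein, averaged 30.4 CPM in the 3 attached libraries of batch 3, against 66.1 CPM in the other 6 attached libraries and 97.3 CPM in suspension. Nearest to Plk1 were KIAA0319l, Ccnf, Aurka, Ube2c and Rnf26, at 0.037 to 0.052, with the median gene at 0.23; Aurka encodes the kinase that activates Plk1. Nearest to Plk3 were Hcn3, Ampd3, Grk5, H1f0 and Lrrk1, at 0.086 to 0.105, with the median gene at 0.29. These are descriptions over libraries that share groups and batches.

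**Figure D4:**
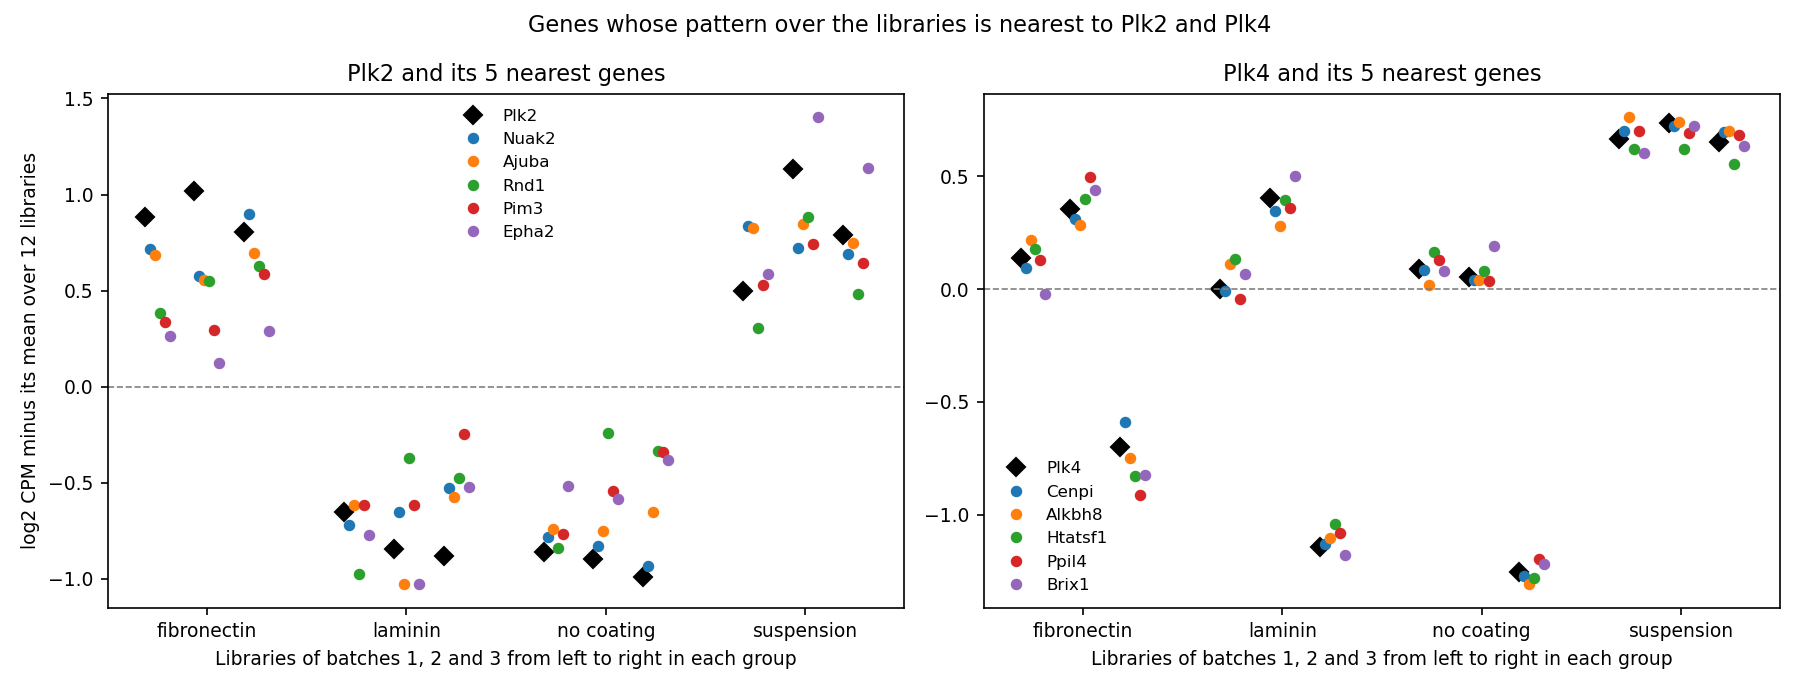
Log2 CPM minus its mean over the 12 libraries, for Plk2 (left) and Plk4 (right) with the 5 genes nearest to each; each point is 1 library and batches 1 to 3 run from left to right in a group. Plk2 and its neighbours are low on laminin and without coating, and Plk4 and its neighbours are low in batch 3 of the attached groups.

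Genes around Plk1 in mitosis were described from a list of 28, of which 26 were tested. Against suspension 0 rose and 2 fell on fibronectin, 0 rose and 3 fell on laminin, and 0 rose and 1 fell without coating. Over all tested genes 6.61%, 12.1% and 8.48% rose and 3.06%, 6.96% and 4.10% fell. The list's median log2 fold changes were -0.14, -0.23 and -0.20, beside medians over all tested genes of 0.0010, -0.0091 and 0.0030. Bora, the cofactor through which Aurka activates Plk1, fell on all 3 surfaces: by edgeR its log2 fold change was -0.56 ± 0.15 on fibronectin (adjusted p = 0.0352), -0.74 ± 0.15 on laminin (adjusted p = 0.00723) and -0.73 ± 0.15 without coating (adjusted p = 0.0102). Bora averaged 17.8 ± 1.58 CPM on fibronectin, 16.0 ± 2.95 on laminin and 16.0 ± 1.56 without coating, against 26.9 ± 1.53 CPM in suspension (SD, n = 3 each). Cdc25b, a phosphatase of mitotic entry, fell on fibronectin (-0.31, adjusted p = 0.0419) and laminin (-0.27, adjusted p = 0.0475), and Aurka on laminin (-0.27, adjusted p = 0.0342). With the block 6, 13 and 12 of the 26 fell, beside 12.1%, 20.8% and 18.7% of all genes, and 1 rose on each surface, beside 16.6%, 22.4% and 20.1%. Without batch 3 the genes that fell numbered 8, 9 and 9, while 4.95%, 10.3% and 6.81% of all genes fell, and 0 rose, while 4.30%, 8.55% and 5.17% of all genes rose. None of the 26 passed between surfaces, where 0.140% and 0.170% of all genes were higher on fibronectin than on laminin and than without coating.

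Genes of centriole duplication, where Plk4 acts, came from a list of 20, of which 16 were tested. On fibronectin 0 rose and 0 fell against suspension, on laminin 1 rose and 4 fell, and without coating 0 rose and 2 fell, while 6.61%, 12.1% and 8.48% of all genes were called higher and 3.06%, 6.96% and 4.10% lower. The list's medians were -0.36, -0.45 and -0.43. Spice1, a centriole protein, fell on laminin (-0.60 ± 0.13, adjusted p = 0.0136, edgeR) and without coating (-0.50 ± 0.13, adjusted p = 0.0347). Cep97, which limits ciliary growth from centrioles, fell on laminin (-0.57 ± 0.14, adjusted p = 0.0194) and without coating (-0.55 ± 0.14, adjusted p = 0.0297). Cep85 and Cntrob also fell on laminin, and Btrc, part of the ubiquitin ligase that marks Plk4 for destruction, rose there (0.24 ± 0.07, adjusted p = 0.0475, edgeR). With the block 7, 11 and 10 of the 16 fell and 1, 1 and 0 rose. Beside these, 12.1%, 20.8% and 18.7% of all genes fell and 16.6%, 22.4% and 20.1% rose. Without batch 3 no gene of the list (0) was called higher on laminin, beside 8.55% of all genes. The count that fell was then 2, 8 and 4, beside 4.95%, 10.3% and 6.81% of all genes, and for the mean of the attached groups 9 of 16, beside 12 of 26 in the mitotic list and 12.8% of all genes. The median difference of the batch 3 attached libraries from the other attached libraries was -0.25 for the 16 centriole genes and -0.055 for the 26 mitotic genes, beside 0.080 for all tested genes and -1.21 for Plk4. Genes of both lists moved both ways. All batch 3 attached libraries lay below all other attached libraries for 8 centriole and 11 mitotic genes. They lay above for 5 and 10. Of the 10020 tested genes, 2030 lay below and 2034 above.

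Genes induced by serum, a class to which Plk2 and Plk3 were first assigned, moved in both directions. Of 24 tested, 4 rose and 5 fell on fibronectin, 3 rose and 7 fell on laminin, and 3 rose and 5 fell without coating, with medians of 0.061, -0.14 and -0.088. Over all tested genes 6.61%, 12.1% and 8.48% rose and 3.06%, 6.96% and 4.10% fell on these surfaces. With the block 6 rose and 5 fell on fibronectin, 5 rose and 9 fell on laminin, and 7 rose and 7 fell without coating, where 16.6%, 22.4% and 20.1% of all genes rose and 12.1%, 20.8% and 18.7% fell. Egr1 fell on all surfaces (log2 fold change -2.60 on fibronectin, -2.41 on laminin and -2.05 without coating, adjusted p = 0.00196, 0.00225 and 0.00645, edgeR), as did Hbegf, Dusp1, Junb and Klf4. Klf2 rose on fibronectin (1.76, adjusted p = 7.56e-05, edgeR). It was the 1 gene of the 24 that was higher on fibronectin than without coating (1.21, adjusted p = 0.00803, edgeR). Of all tested genes, 0.170% were higher in that comparison. None of the 24 passed between fibronectin and laminin, where 0.140% of all genes were higher and Klf2 was at 0.93 ± 0.15 (adjusted p = 0.0509, edgeR). With the block 1 of the 24 did, Klf2 (0.94, adjusted p = 0.0168), beside 0.369% of all genes called higher on fibronectin.

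Of 16 p53 target genes tested, 2 rose on each surface, Phlda3 and Sesn1, and 1 fell on laminin, Btg2, which is on the serum list too; 0 fell on the others, and medians were -0.018, -0.033 and 0.15. These counts stand beside 6.61%, 12.1% and 8.48% of all genes that rose and 3.06%, 6.96% and 4.10% that fell. With the block 4 rose and 1 fell on fibronectin, 6 rose and 5 fell on laminin, and 5 rose and 4 fell without coating, again beside 16.6%, 22.4% and 20.1% of all genes that rose and 12.1%, 20.8% and 18.7% that fell. Without batch 3 1, 2 and 1 of the 16 rose and 0, 3 and 2 fell, beside 4.30%, 8.55% and 5.17% of all genes higher and 4.95%, 10.3% and 6.81% lower. Of 17 substrates and partners of Plk2 and Plk3 tested, 1 rose and 0 fell on fibronectin, 2 rose and 1 fell on laminin, and 1 rose and 0 fell without coating, with medians of -0.093, -0.13 and -0.11. Tsc1, part of the complex that restrains mTORC1, rose on all 3 surfaces (0.39, 0.37 and 0.36, adjusted p = 0.0256, 0.0203 and 0.0302, edgeR) and Rab5if rose on laminin. The shares of all genes are those given for the p53 targets. With the block 3 of the 17 rose on each surface and 3, 5 and 4 fell, and without batch 3 the counts were 2, 3 and 2 that rose and 3, 4 and 3 that fell.

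Targets of YAP and TAZ, transcriptional cofactors that respond to attachment and tension, were listed because earlier results of these data showed some of them to differ by surface, so their direction is not independent evidence. Of 17 tested, 2 rose and 2 fell on fibronectin, 1 rose and 11 fell on laminin, and 1 rose and 8 fell without coating, against suspension, with medians of -0.12, -0.71 and -0.60. Of all tested genes, 6.61%, 12.1% and 8.48% rose and 3.06%, 6.96% and 4.10% fell in these comparisons. With the block 3, 1 and 1 of the 17 rose and 7, 13 and 13 fell, beside 16.6%, 22.4% and 20.1% of all genes that rose and 12.1%, 20.8% and 18.7% that fell. Between surfaces, 6 were higher on fibronectin than on laminin and 7 than without coating, beside 0.140% and 0.170% of all tested genes. In both comparisons 0 were lower, and medians were 0.50 and 0.25, beside medians of 0.0058 and 0.0044 over all genes. Amotl2, which encodes an angiomotin, was higher on fibronectin than on laminin by 1.42 ± 0.10 on the log2 scale (adjusted p = 0.000187, edgeR), Nuak2 by 1.42 ± 0.11 and Ajuba by 1.41 ± 0.11. The matricellular genes Ccn1 and Ccn2 were higher by 3.35 ± 0.35 (adjusted p = 0.00216, edgeR) and 2.04 ± 0.22 (adjusted p = 0.00232). Ccn2 and Ankrd1 fell on fibronectin against suspension (-0.80, adjusted p = 0.0379, and -1.98, adjusted p = 0.000434, edgeR).

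**Figure D5:**
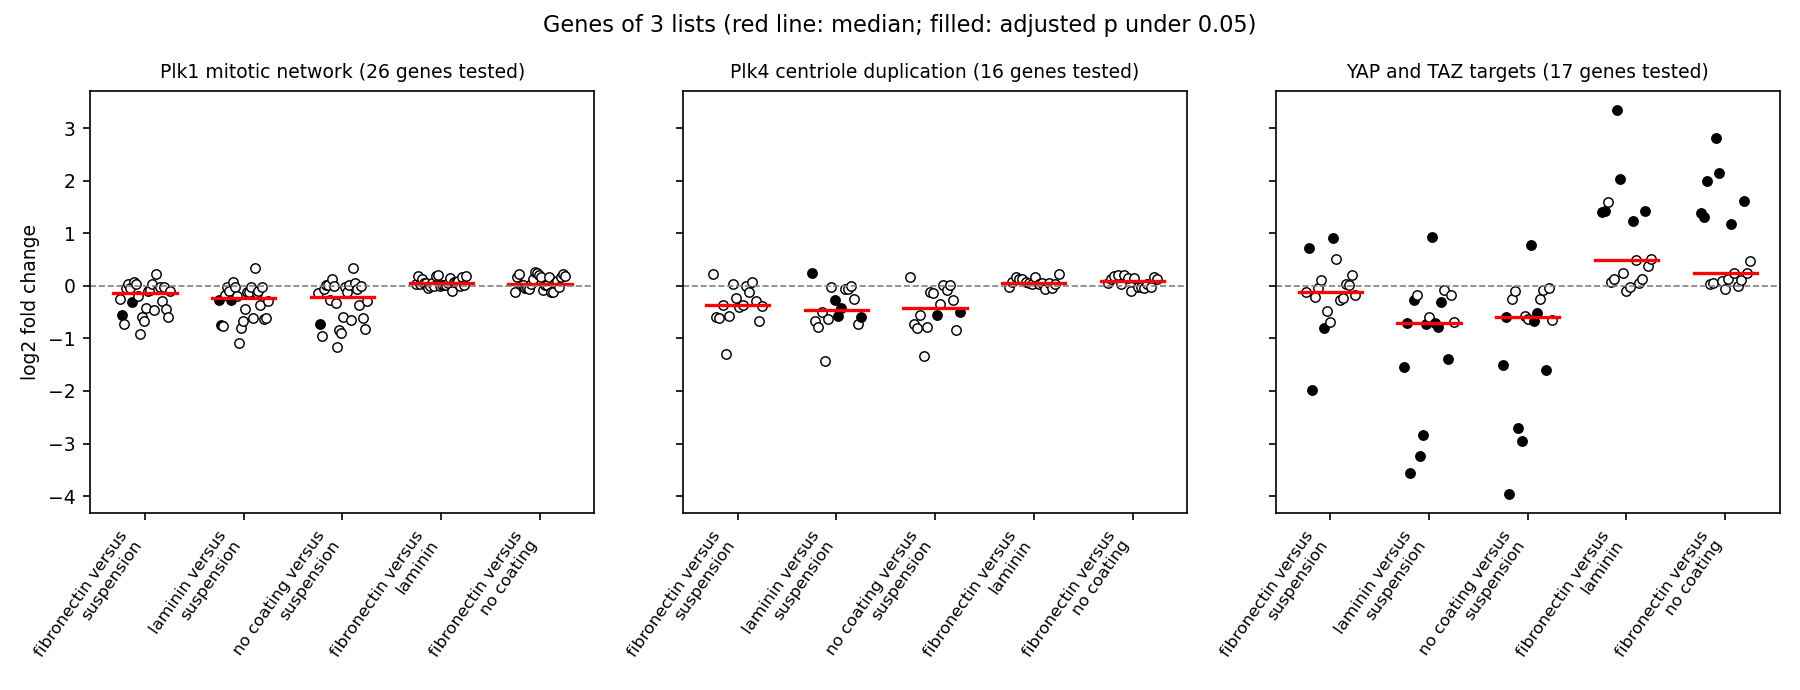
edgeR log2 fold changes of the tested genes of 3 lists in 5 comparisons between groups; each point is 1 gene, filled where its adjusted p is under 0.05, and the red line is the list's median. Medians against suspension lie between -0.45 and -0.14 in the mitotic and centriole lists. On fibronectin 6 and 7 YAP and TAZ genes are higher than on laminin and without coating, beside 0.140% and 0.170% of all genes.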

How the data were processed

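RNA of 12 libraries was made into sequencing libraries with a stranded total RNA kit, per the labels' protocols. The authors deposited raw read counts in 1 file for each library, with Entrez identifiers as keys per the file headers, and all values are whole numbers. Per the submitters' processing notes, rn4 was the build. Aligner, counter, annotation and strand setting: not given in the sources used here. Reads that antisense or near-identical genes may share therefore cannot be judged. Symbols came from RefSeq on GRCr8 and matched 16761 of 16924 identifiers.

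Counts were tested with edgeR 4.0.16 in R 4.3.3 (glmQLFit and glmQLFTest). filterByExpr kept 10020 genes, and 3796 had no count. Scaling was by TMM, with factors from 0.962 to 1.03. All 12 libraries entered 1 model of 4 groups without a batch term (8 residual degrees of freedom), p-values were adjusted over all tested genes by Benjamini-Hochberg, and the threshold was 0.05. Fold changes are given ± SE. CPM printed are counts per 1000000 of the library total. The fit without a block was tested on simulated counts in 1 comparison, fibronectin against suspension. Those counts held no batch effect, so that test does not cover the shared batches of these libraries. No per-sample column was left unused.

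Same-numbered libraries carry the same batch label, and each batch has its own date in the file headers. The numbers were therefore taken as pairs in the within-batch differences and in the replicate block. The main fit did not use this pairing. Across genes, deviations of log2 CPM from group means correlated with a median of 0.410 in the 18 same-batch pairs of libraries (lowest 0.036). The median was -0.124 in the 36 others. In the 9 same-batch pairs of attached libraries it was 0.675 (lowest 0.514). Alternatives were a replicate block, DESeq2 1.42.0 and its size factors, library size only, no count filter, only the groups compared, leaving out each library, and leaving out batch 3. The members, lists and tests were chosen with earlier results of these data known. Genes named beside the members are the 5 nearest over the libraries among those with a mean log2 CPM of at least 2 and, from each list, at most the 6 called genes with the smallest p (where under 3 were called, at most the 3 with the smallest p). Some genes of the list of Plk2 and Plk3 substrates and partners are not reported here. The only coordinates printed are those of the RefSeq promoter windows on GRCr8; none of the files' build were used.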

Additional observations from a re-analysis of the deposited data

Results flagged for a closer look

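Plk2 differed between surfaces under the same comparison with suspension. The difference between its change on fibronectin and its change on laminin was 1.73 on the log2 scale (adjusted p = 0.000848, edgeR), and between fibronectin and no coating 1.84 (adjusted p = 0.000488), each positive in 3 of 3 batches.

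The change of Plk4 from suspension to the attached groups differed between batches: it was lower in batch 3 than in batches 1 and 2 (log2 difference -1.20, adjusted p = 0.00419, edgeR), a test chosen after the values had been seen. The difference from suspension was lower in batch 3 on all 3 surfaces. Batch 3 is a single batch, so this p measures the spread between libraries and not between batches. What differed in batch 3 was not tested.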

How the results depend on the processing

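Alternatives left every Plk2 call in place: its 62 values under alternatives other than leaving out 1 library kept direction and side of the threshold, and without 1 library they ran from -1.78 to -1.43 on laminin and -1.89 to -1.54 without coating against suspension, 1.67 to 1.82 on fibronectin against laminin and 1.79 to 1.90 on fibronectin against no coating. For the other members, a replicate block (pairing by batch) brought calls for Plk1 (-0.26, -0.29 and -0.20 on fibronectin, laminin and no coating against suspension), Plk3 (-0.31, no coating) and Plk4 (-0.78, -0.96 and -1.07; -0.94 for the attached mean), and counts of genes called became 2872, 4333, 3889 and 5016 against suspension and 41 and 47 for fibronectin against laminin and no coating. Plk1 on laminin was also called with DESeq2 size factors (-0.30) and in DESeq2 (-0.30), which called 45 and 53 genes between surfaces. Calls of Plk3 on fibronectin and laminin were lost with library size only (-0.50, -0.42), without the count filter (-0.46, -0.42), with only the groups compared (-0.47, -0.42) and without batch 3 (-0.58, -0.47), and that of Plk1 for the attached mean with library size only (-0.26). With only the groups compared Plk1 was called on fibronectin (-0.26), and 461, 9 and 11 genes were called for no coating against suspension and fibronectin against laminin and no coating. Without batch 3, Plk1 was called on all surfaces (-0.31, -0.38, -0.30) and Plk4 on laminin, no coating and the attached mean (-0.47, -0.60, -0.49), with 11 genes for fibronectin against no coating. Adding the block to that gave Plk1 -0.31, -0.38 and -0.30, Plk3 -0.32 without coating, Plk4 -0.41, -0.48, -0.59 and -0.49, and counts of 2812, 4001, 3073 and 4304, then 134, 90 and 28 between surfaces. Leaving out the 3 attached libraries of batch 3, chosen after seeing the data, gave Plk1 -0.31, -0.38 and -0.29, Plk4 -0.39, -0.46, -0.58 and -0.48, and counts of 1833, 3038, 2133 and 26 (fibronectin against laminin). Leaving out 1 library gave ranges of -0.045 to 0.30 for Plk2 on fibronectin, -0.59 to -0.35 and -0.48 to -0.33 for Plk3 on fibronectin and laminin, -0.46 to -0.33 for its attached mean, -0.37 to -0.24 for Plk1 on laminin and -0.28 to -0.22 for its attached mean, and counts of 412 to 1304, 797 to 2488, 537 to 1459 and 1117 to 2852 against suspension, and 7 to 20 and 10 to 22 between surfaces. Uncalled differences between surfaces changed sign in such fits: fibronectin against laminin ran from -0.015 to 0.12 (Plk1), -0.17 to 0.062 (Plk3) and -0.20 to 0.49 (Plk4), fibronectin against no coating from -0.12 to 0.034 (Plk1) and -0.078 to 0.52 (Plk4), and laminin against no coating from -0.23 to 0.45 (Plk4). The causes were not tested beyond what each setting removes. With a lone library left out, groups of 2 remain; Plk3, at 157 to 252 counts a library, is the member most limited by depth.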
